A study of Saccharomyces cerevisiae BY4741 with 25 samples.

Results

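The RRC4 pool is a genomic DNA library of yeast (*Saccharomyces cerevisiae*) clones, and its variant calls were set against those of the parental pool. Calls were counted as RRC4-specific when they rested on at least 10 reads and the same chromosome, position, reference allele and alternate allele was absent from the parental list. Alternate entries were matched whole. A call listing 2 alternate alleles can thus count as absent although 1 of them is parental. By this rule 262 of the 598 RRC4 calls were RRC4-specific, of 1350 such calls over all 8 mutant pools. The other 7 mutant pools held 119 to 177 each. By their titles, RRC1, RRC2, RRC3 and RRC5 are named for *rrn9*, *rrn10*, *rrn5* and *uaf30*, in that order. The titles of RRC4, RRC6, RRC7 and RRC8 name no gene. Per the labels, RRC4 carries the strain name YTT67_alpha5, is a mixture of MATa and MAT alpha cells and was grown in rich glucose medium (YPD) to stationary phase. By title and strain name it is a mutant, whereas its free-text description speaks of the parental strains YTT66 and YTT67. Those 2 strains, mixed, make up the parental pool. Both pools share the BY4741 background named in the organism label, and every pool is 1 library. Mutant clones were cultured separately and harvested together, so a pool averages over clones. The number of clones and the agent that caused the changes are not stated in the labels. The series used genome sequencing to find mutations that derepress *SIR2*, and its 16 chromatin immunoprecipitation samples were not analysed here.

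*SIR2* encodes the histone deacetylase that silences the ribosomal DNA and keeps its copy number stable, and upstream activating factor (UAF), an activator of RNA polymerase I, can also bind and repress the *SIR2* promoter. In a pool of haploid progeny selected for a phenotype, a change that causes it and changes linked to it are carried by nearly every clone, while an unlinked change is inherited by about as many clones as lack it. The share of reads with the alternate allele therefore serves as the readout of such a pool.

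The RRC4-specific calls had 11 to 461 reads, with a median of 59.5, and shares of 9 to 100% with a median of 50%. They named 183 genes or other loci. Of these calls, 170 lay inside 147 genes and 112 changed the protein of 104 genes. Missense changes were the most frequent class, with 102 calls, followed by 56 synonymous and 53 intergenic calls. A further 21 calls lay just downstream and 18 just upstream of a gene, between 7 and 100 bases from it. The rest were 5 frameshifts, 4 stop gains, 1 codon insertion, 1 intron call (in *RPL42A*, a ribosomal protein gene, 44%) and 1 call in a tRNA exon. At the depth limit, the only call inside it with 11 reads was an intergenic call of 27%, and the 6 calls with 8 or 9 reads just outside it had shares of 33 to 100%.

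Each share was compared with 50% by a two-sided exact binomial test on reads, with Benjamini-Hochberg adjustment over all 523 RRC4 calls of at least 10 reads. Of the 262 calls, 55 (21%) were above 50% at an adjusted p under 0.05, where 44.9% of all 523 calls were. Another 54 (20.6%) were below 50%, where 16.1% of all calls were, and 153 did not pass. Near-fixed calls, with a share of at least 90% that passed the test, numbered 27 (10.3%), against 38.2% of all calls. Of these, 7 changed a protein (2.67%), against 13% of all calls. The test concerns the reads of 1 library and says nothing about how clones were drawn. Intervals are exact Clopper-Pearson 95% intervals and cover counting error only.

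**Figure D1:**
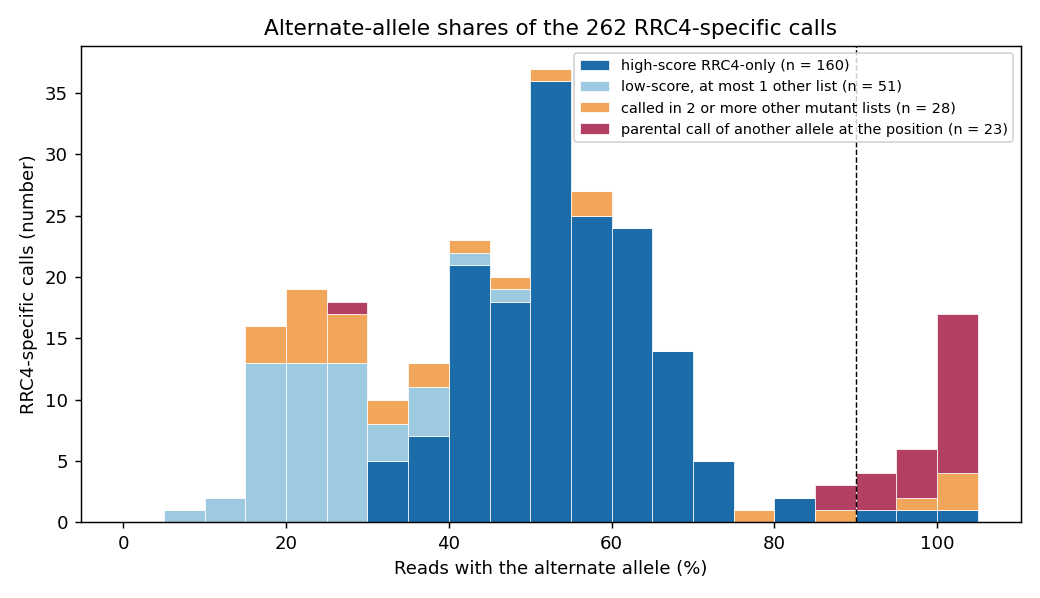
Number of RRC4-specific calls (y axis) by the percentage of reads with the alternate allele (x axis, bins of 5 points), stacked by 4 kinds of call; the dashed line marks 90%. The 160 high-score calls found in RRC4 alone have a median of 53%, the 51 low-score calls one of 22%, and the 23 calls at a position where the parental pool has another allele one of 100%.

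The near-fixed protein-changing calls were in *CHD1*, *ECM32*, *ALT2*, *ASG1*, *COS5*, *FLO9* and YHL041W. *CHD1* (YER164W), which encodes a chromatin-remodelling ATPase that spaces nucleosomes, carried a G-to-A change on chromosome 5, position 509603. It turns the tryptophan codon tgG into the stop codon tgA (W1404*), with the changed base in capitals. The change was in 58 of 59 reads, 98% (90.9 to 100%), with an adjusted p of 1.25e-15 by the exact binomial test. It was in no other pool's list. *ECM32* (YER176W), a gene for a DNA helicase, carried a G-to-A change at position 542557 of the same chromosome. The glutamate codon Gag becomes the lysine codon Aag there (E290K). It was in 47 of 52 reads, 90% (79.0 to 96.8%), with an adjusted p of 5.17e-09 by the same exact test, and again in no other list. The 2 changes were 33 kb apart. A near-fixed limit of 95% kept *CHD1* and left *ECM32* out.

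Those 2 were the only near-fixed calls of the 27 with no parental call within 5 bases and at most 1 other mutant list with a call at the position. A parental call of another allele stood at the same position for 20 of the 27, a parental call lay within 5 bases for 23, and the same allele was in another mutant list for 20. Several near-fixed calls, among them those of YBL100W-B, *SRB6*, *TDA4* and YHL041W, list 2 alternate alleles with a single share for both. No single allele is shown to be near-fixed there. The high-score kind held 1 more near-fixed call, an intergenic AG-to-A deletion on chromosome 2, position 7911. It was in all 30 reads, 100% (88.4 to 100%; adjusted p 7.32e-09, exact binomial test), and in no other list, with a parental call within 5 bases. An intergenic insertion of high score on chromosome 11, position 465190, was in 27 of 33 reads, 81% (64.5 to 93.0%), also with a parental call within 5 bases. Of the near-fixed calls that changed no protein, 7 were synonymous, 6 intergenic, 3 upstream, 3 downstream and 1 in a tRNA exon. The synonymous ones were in *FLO9* and in the retrotransposon genes YBL100W-B and YBL005W-B.

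Among the other protein-changing near-fixed calls, the frameshift in *ALT2*, an alanine transaminase paralogue, was a CAT-to-C deletion on chromosome 4 in all 23 reads, and it was called in all 7 other mutant lists. The insertion in *ASG1*, a zinc cluster regulator, added an asparagine codon (D888ND) in all 53 reads and was in 6 other lists. *COS5* P50R, in a subtelomeric membrane protein family, was in all 25 reads and in 6 other lists. *FLO9* R313K was in all 14 reads and in 7 other lists. The YHL041W frameshift call lay in a homopolymer and had a score of 29.5, with another parental entry at the position. It lists a shorter and a longer insertion, and 49 of 51 reads carried either. The same entry was in 5 other lists.

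The calls fell into 4 kinds by their quality score and by where else they were found. The largest, 160 calls (61.1%), reached a score of 200, stood where the parental list has no call, and recurred at that position in at most 1 further mutant list. They are called high-score here. This filter was taken from an earlier analysis of these data, so it is a description. Their shares were 33 to 100%, with a median of 53%. The second kind, 51 low-score calls with a median score of 12.3, had a median share of 22%. Another kind of 28 calls, at positions called in 2 or more other mutant lists, had a median of 31.5%, and 23 calls at a position with another parental allele had a median of 100%. Of the 112 protein-changing calls, 86 were high-score.

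The single-base changes were mostly G:C to A:T. Of 222 RRC4-specific single-base calls, 181 were of this type, 81.5% (75.8 to 86.4%), against 65 of 221 (29.4%) among RRC4 calls also in the parental list. Within the high-score kind it was 155 of 156, with 107 written as C to T and 48 as G to A on the reference strand. The exception was an A-to-G change 9 bases upstream of *HSP150*, a cell wall protein gene, in 23 of 56 reads (41%). In the low-score kind, 22 of the 51 calls were G:C to A:T. RRC4 held 155 G:C-to-A:T calls of high score, and the other mutant pools 7 to 74 each. In those pools this type made up 93.0 to 100% of the single-base calls of high score, so its predominance was common to all mutant pools. The pool with 7, RRC6, had a median depth of 44 reads at calls with a score of at least 200, against 63 in RRC4.

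These 155 calls had 43 to 88 reads and a mean share of 53.8 ± 10.4% (SD over calls), where counting reads alone gives an SD of 6.22 points. Calls of 1 pool share its clones, so they are not replicates. Of the 155, 29 passed the test, 25 above and 4 below 50%, with the adjustment over all 523 calls. Every adjusted p given here uses that set, which includes 261 calls also in the parental list. Near-fixed calls made up 38.2% of it, and their small p-values loosen the cut for the other calls. Passing calls with an adjusted p close to 0.05, such as *ZRG8* and *VID30* (both 0.0484, exact binomial test), therefore depend on the set chosen. An adjustment over the 155 calls alone was not run. The 144 calls on chromosomes other than 5 had a mean of 53.3 ± 9.57% and none was above 83%. On chromosome 5 the 9 calls over 200 kb from *CHD1* averaged 52.9 ± 4.86%, within 47 to 63%.

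The high-score calls of chromosome 5 are given one by one. From the left, *ANP1* (a Golgi mannosyltransferase subunit) had M369I in 40 of 73 reads (54%), an intergenic change was in 40 of 76 (52%) and YEL025C had G227E in 40 of 82 (48%). *ZRG8* G650E followed with 44 of 69 reads, 63% (51.3 to 75%), and its adjusted p of 0.0484 by the exact binomial test was the only one of the 9 under 0.05. *GLN3*, an activator of nitrogen-regulated genes, had a synonymous change in 26 of 48 reads (54%). *CAJ1*, a J-domain chaperone, had one in 28 of 59 (47%). *JHD1*, a histone H3 demethylase, had L75F in 30 of 61 reads (49%). An intergenic change was in 28 of 50 reads (56%). *ALD5*, a mitochondrial aldehyde dehydrogenase, had T270I in 36 of 67 reads, 53% (41.1 to 66.0%). From *ALD5*, at -205 kb from the *CHD1* change, no further high-score call was present up to *CHD1*. The shares of *CHD1* and *ECM32* were thus separated from those of the other high-score calls of the chromosome, while no such call filled the interval between. Outside the high-score kind, chromosome 5 had a homopolymer call 90 bases downstream of YEL020C-B, where the parental list has another entry. Its alternate alleles together were in all 27 reads. An intergenic AT repeat call was at 21% of 70 reads.

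**Figure D2:**
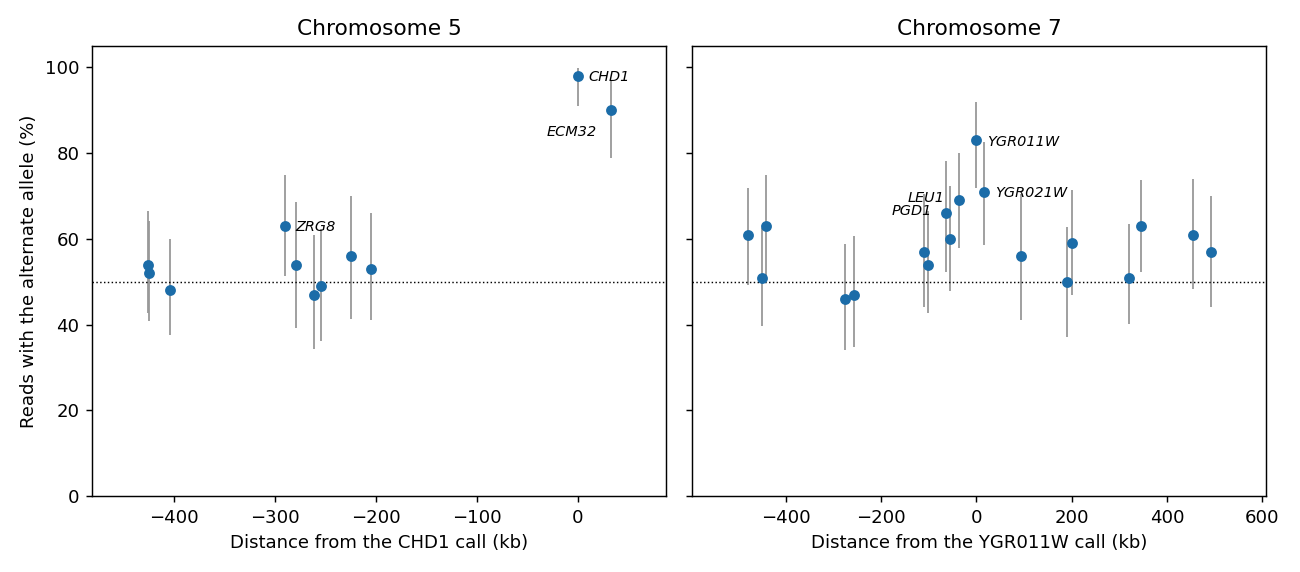
Percentage of reads with the alternate allele (y axis) for each G:C-to-A:T RRC4 call of high score on chromosome 5 against its distance in kb from the CHD1 call (left) and on chromosome 7 against its distance from the YGR011W call (right); bars are exact 95% intervals and the dotted line is 50%. CHD1 (98%) and ECM32 (90%) stand above the other 9 calls of chromosome 5 (47 to 63%), and on chromosome 7 the shares run up to 83% at YGR011W and down again on both sides.

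Outside chromosome 5, the highest share of a high-score G:C-to-A:T call was on chromosome 7. A C-to-T change at position 512781, synonymous in the open reading frame YGR011W (L95) and 49 bases downstream of *NMA2* (an enzyme of NAD synthesis), was in 51 of 61 reads, 83% (71.9 to 91.8%; adjusted p 3.31e-07, exact binomial test). Its neighbours had intermediate shares. To the left were *RPT6* V113I (a proteasome ATPase, 54%), *PGD1* G290R (66%), *ALK1* H726Y (a protein kinase, 60%) and *LEU1* C627Y (isopropylmalate isomerase of leucine synthesis, 51 of 73 reads, 69%). To the right were YGR021W T213I (43 of 60 reads, 71%) and *PEF1* H133Y (56%). The remaining high-score calls of chromosome 7 lay between 46 and 63%. Other calls of this chromosome were an intergenic homopolymer call at 87% of 24 reads, with another parental allele at the position, and low-score or recurrent calls of 19 to 27%. The YGL and YGR names place *LEU1* on the left arm and YGR021W on the right arm, so the stretch of high shares spans the centromere.

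On chromosome 2, 4 successive calls had shares of 66 to 72% and all passed the exact binomial test. They were a change 82 bases downstream of *RPB5*, a subunit shared by all nuclear RNA polymerases (35 of 48 reads, 72%, adjusted p 0.00414), one 34 bases upstream of *CSH1*, a mannosylinositol phosphorylceramide synthase subunit gene (54 of 77, 70%, adjusted p 0.00113), a synonymous change in *RPL21A*, a ribosomal protein gene (48 of 70, 68%), and S1768F in *DUR1_2*, the urea amidolyase (35 of 53, 66%). The calls to their left, from *RPS11B* to *SLM4*, had 53 to 62%, and the call to their right 51%. On chromosome 8, S53F in *SRB2* was in 55 of 76 reads (72%), with 53% at the intergenic call to its left and 48% at *APE4* to its right. On chromosome 13 an intergenic C-to-T change at position 311945 was in 54 of 74 reads (72%, adjusted p 0.000231 by the exact binomial test).

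At the low end, *UTP13*, a small-subunit processome component, had a synonymous change in 22 of 66 reads, 33% (22.2 to 46.0%; adjusted p 0.0168, exact binomial test). The change 81 bases upstream of *SAM3*, a permease gene, was also at 33% (21 of 63 reads). *LAA1*, which works with the AP-1 clathrin adaptor, carried both G927E at 34% (25 of 72 reads) and V1780I at 55% (43 of 77 reads). Of these shares in 1 gene, only the lower one passed the test, with an adjusted p of 0.0227 by the exact binomial test. A change 81 bases downstream of the initiator tRNA gene *IMT3* was at 34% (23 of 66 reads). *BUL1*, an adaptor of the ubiquitin ligase Rsp5, had a 1-base deletion 99 bases upstream at 34% (22 of 63 reads).

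The stop gains other than that of *CHD1* were not near fixation. *ARG81* W729*, in a regulator of arginine metabolism, was in 37 of 73 reads, 50% (38.7 to 62.6%). YFR016C Q362* was in 23 of 54 reads, 42% (29.2 to 56.8%). *GLG2* W362*, in a glycogenin gene, was in 15 of 54 reads, 27% (16.5 to 41.6%), with a score of 161 and an adjusted p of 0.00301 below 50% by the exact binomial test. Among the frameshifts, that of *EGT2*, a cell separation glucanase, was the only high-score one and was in 38 of 62 reads (61%, 48.1 to 73.4%). The frameshift of *HSM3*, a proteasome assembly chaperone, was in 41 of 48 reads (85%), with a parental call within 5 bases and the same allele in 2 other lists. That of YBR116C, a homopolymer deletion, was in 16 of 42 reads (38%).

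Over the 6021 protein-coding genes of the RefSeq R64 table, 2.34% had an RRC4-specific call inside and 1.66% a protein change, and the lists that follow are to be read against these shares. Among genes of transcription by RNA polymerase I, none of the 8 UAF genes (histone genes included) and none of the 5 core factor and TBP genes carried an RRC4-specific call inside. The nearest was a low-score Q46K call in YLR140W, in 8 of 44 reads (18%), which is annotated also as upstream of *RRN5*, a UAF subunit. Of 14 RNA polymerase I genes, 1 had a protein change. *RPC40*, a subunit shared with RNA polymerase III, had A286T in 26 of 67 reads, 38% (27.1 to 51.5%), which did not pass the test (adjusted p 0.126, exact binomial). None of 21 genes of ribosomal DNA silencing and stability, *SIR2* among them, had a call inside.

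Of 28 chromatin remodeller genes, *CHD1* was the only one with a protein change, and 0 of 34 listed genes for histone modifiers and chaperones had one. That list does not hold *JHD1*, whose L75F change at 49% is given above. A call with a score of 4.77, also in 2 other mutant lists, lay 55 bases downstream of *HOS2*, a histone deacetylase gene. It was in 7 of 35 reads (20%). Of 37 genes of elongation and the Mediator complex, which links activators to RNA polymerase II, 3 had a protein change. *SRB2* S53F, in the Mediator head, was at 72% (60.9 to 82.0%; adjusted p 0.000282, exact binomial test). *PGD1* G290R, in the Mediator tail, was in 37 of 56 reads, 66% (52.2 to 78.2%; adjusted p 0.0373, same test). *CYC8* H537Q, in the general corepressor that pairs with Tup1, rested on 3 of 14 reads and a score of 6.98. *SRB6* had only a downstream homopolymer call. Of 17 RNA polymerase II and III genes, *RPC17* had S99N in 36 of 59 reads (61%, 47.4 to 73.5%).

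Of 54 genes of replication, repair and chromosome structure, 3 had a protein change and none passed the test. *ORC2* P430L, in the origin recognition complex, was in 36 of 61 reads (59%). The mismatch repair gene *PMS1* had D252N in 25 of 56 reads (44%). Of 26 genes of TOR and nutrient signalling, *NPR1*, a kinase that controls nitrogen permeases, had D746N in 29 of 73 reads (39%, 28.5 to 51.9%). These lists were drawn up with earlier results of these data known. Their counts are small and are given without a test, so nothing is read from a count above or below the share over all genes.

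The high-score protein changes not yet described lay between 37 and 67%. By share, all 86 divided into 5 under 40%, 22 from 40 to 49%, 32 from 50 to 59%, 23 from 60 to 69% and 4 of at least 70%. Genes of ribosome assembly were among them. *UTP6* R266H (40%) and *UTP18* D204N (42%) are in the small-subunit processome. *URB1* S1214N (60%), *RIX1* V49I (60%) and *MDN1* A4724T (60%) act in large-subunit assembly. *RPS11B* G62D (55%) is in a ribosomal protein and *FHL1* G3R (40%) in a regulator of ribosomal protein genes. Synonymous changes were in *KRI1* (50%), *URB2* (53%), *RPF2* (47%), *SDO1* (46%), *JJJ1* (56%) and, in 2 places, *DBP8* (46 and 41%), which all act in ribosome biogenesis.

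In RNA metabolism and nuclear transport, *PAP1* P305S, in the poly(A) polymerase, was at 66% (adjusted p 0.0158, exact binomial test), *MEX67* A179T, in the mRNA exporter, at 60% and *TFB2* E381K, in general factor TFIIH, at 55%. *NUP84* A270T, in the nuclear pore, was at 51%. In signalling and the cell cycle, *GPA1* T371M (the G protein alpha subunit of the mating pathway) was at 53%, *STE50* L346F (its kinase adaptor) at 50%, *GIN4* R400C (a septin-organising kinase) at 66% (adjusted p 0.0262, exact binomial test) and *MID1* E172K (a calcium channel) at 54%. *PHD1* P33L, in a regulator of filamentous growth, was at 40% and *PSY2* E408K, in a protein phosphatase subunit, at 42%. In protein breakdown, *UBP14* V508I was at 60%, *ECM29* A1777T at 56% and *VID30* P351S at 63% (adjusted p 0.0484, exact binomial test).

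In metabolism, *FAS2* P1029S and *ACC1* R656C, both in fatty acid synthesis, were at 52 and 55%. *ERG24* G341D (sterol synthesis) was at 43%, *ADE16* V514I (purine synthesis) at 51% and *RIB4* A109V (riboflavin synthesis) at 51%. *ISA1* P164S (iron-sulphur proteins) was at 50% and *GND2* S59L (pentose phosphate pathway) at 57%. In membrane traffic, *TRS120* P845L was at 58%, *APM1* G400R at 48%, *GYP5* G302S at 52%, *GRH1* V305I at 42%, *CHS5* R253K at 58% and *EMC1* G586R at 37%. The vacuolar ATPase gene *VMA5* had S376F at 47%, and the transporter gene *TPO4* S646L at 60%. None of these changes passed the test.

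Further high-score protein changes were of other or unknown roles. *INP1* G160R, in a peroxisome inheritance factor, was at 67% (adjusted p 0.0151), YDR109C L387F at 65% (adjusted p 0.041) and YPL109C E77K at 64% (adjusted p 0.0341), all above 50% by the exact binomial test. *SCD5* S466F (endocytosis) was at 65%, *KEL2* G376D at 61%, and YHL019W-A G181R and YKR017C M221I at 60%. YNR065C P486L was at 59%, *GRS2* G436S (a glycyl-tRNA synthetase) at 58%, *MST27* T3I and *PMU1* A43T at 57%, *SSH4* T285I at 56%, *CWC25* R153K (a splicing factor) at 55% and YGR107W P27L at 50%. *GPI10* E112K (GPI anchor synthesis) and YDR338C T63I were at 46%, *MDM32* A492T (a mitochondrial protein) at 45%, *IRC23* D93N, *RKM1* S567F (a lysine methyltransferase) and YJL045W A263V at 43%, *PAU3* T26I at 41% and *RRT12* M456I at 38%. Those from *SCD5* on did not pass the test.

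Synonymous and flanking high-score changes covered much the same range of shares. Synonymous ones included *GLN4*, glutaminyl-tRNA synthetase (65%), *RLM1*, a cell integrity transcription factor (65%), *HFA1*, the mitochondrial acetyl-CoA carboxylase (66%), *MKK1*, a kinase (57%), *CLB3*, a cyclin (48%), and *PMA2*, a proton pump (44%). Upstream ones included *YPS3*, a yapsin protease (61%), *PLB2*, a phospholipase (61%), *RPS10B*, a ribosomal protein (53%), and *TRM1*, a tRNA methyltransferase (46%). Over the high-score kind, median shares were 54.5% for 82 missense, 53% for 34 synonymous, 52% for 25 intergenic and 52% for 10 upstream calls.

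The base written as changed ran in long blocks along the chromosomes. Among these 155 calls, 129 of 140 pairs of adjacent calls on a chromosome had the same changed reference base (92.1%), against 6054 of 11062 pairs on different chromosomes (54.7%). For RRC4 calls also in the parental list it was 33 of 53 adjacent pairs (62.3%). The pattern was noticed in these data, and adjacent pairs share calls, so the counts have no test. Of 15 chromosomes with at least 2 such calls, 9 had 1 changed base throughout, 7 of them C (chromosomes 3, 7, 9, 10, 11, 13 and 16) and 2 of them G (chromosomes 8 and 15). The longest run held 19 calls over 972 kb, all of chromosome 7. Runs of at least 5 calls held 136 of these calls.

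**Figure D3:**
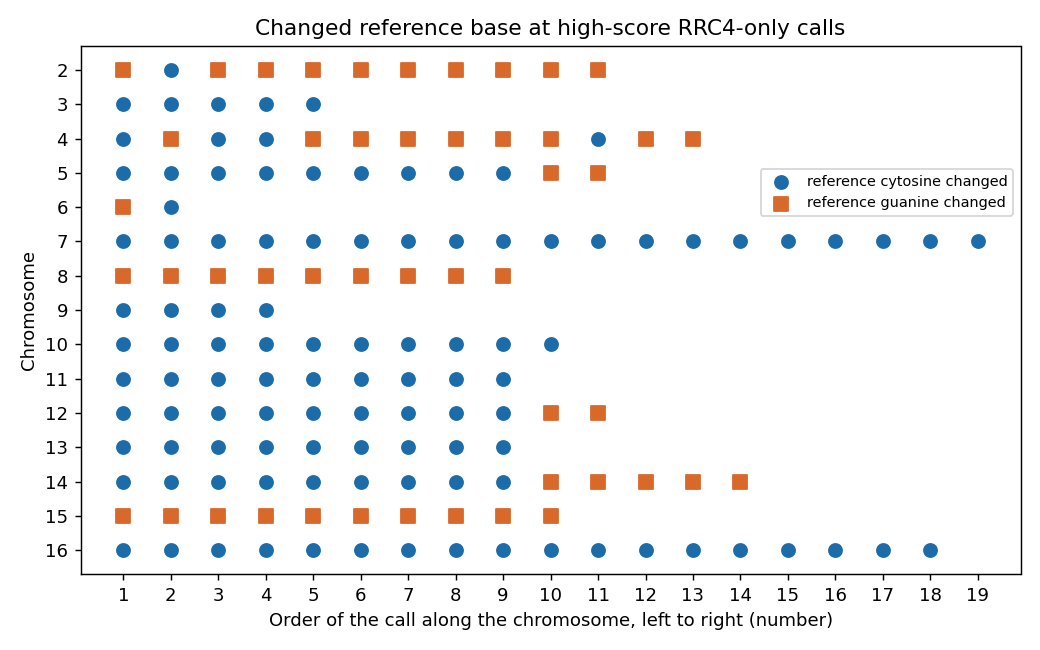
High-score G:C-to-A:T RRC4 calls of each chromosome (y axis) in their order along it (x axis, call number from the left), with blue circles for a changed reference cytosine and orange squares for a changed guanine. Chromosomes 7 and 16 show 19 and 18 cytosine calls with no guanine call, chromosomes 8 and 15 guanine calls alone, and 11 switches occur over the whole set.

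The changed base switched 11 times within chromosomes. On chromosome 5 all 9 calls from *ANP1* to *ALD5* were C to T and the 2 calls of *CHD1* and *ECM32* were G to A. On chromosome 12 the 9 leftmost calls were C to T and those of *UTP13* and *CHS5* were G to A. On chromosome 14 the 9 calls from *KRI1* to *RPL42A* were C to T and the 5 from *PMS1* to *DSE4* were G to A. Chromosome 4 had 6 runs. Each of the other 7 mutant pools had more same-base pairs among adjacent calls (75.8 to 100%) than among calls on different chromosomes (45.8 to 64.7%), on 3 to 58 adjacent pairs each.

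**Figure D4:**
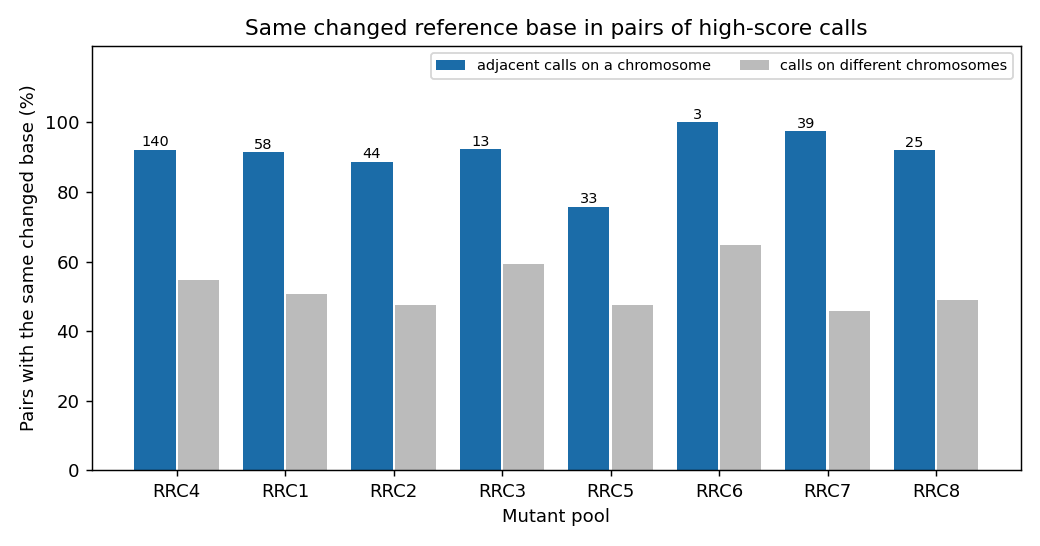
Percentage of pairs of high-score pool-only G:C-to-A:T calls with the same changed reference base (y axis) in each mutant pool (x axis), for adjacent calls on a chromosome (blue, number of pairs above the bar) and for calls on different chromosomes (grey). RRC4, with 140 adjacent pairs, has 92.1% against 54.7%, and the blue bar is the higher one in all 8 pools.

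G:C-to-A:T calls outside the high-score kind, with no parental call at the position, were compared with the nearest high-score call on their chromosome. All 8 with a score of 100 to under 200 had its changed base, whereas 2 of the 10 comparable calls with a score under 100 did. Those 8 had shares of 27 to 46% and included *GLG2* W362*, *BUL1* E48K (31% of 63 reads) and synonymous changes in *STS1* (27%) and *TRK1* (33%). Shares of neighbouring high-score calls differed by a median of 6 points at gaps up to 20 kb (43 pairs) and from 20 to 50 kb (40 pairs), 9 points from 50 to 100 kb (23 pairs) and 12.5 points beyond 100 kb (34 pairs). Pairs on different chromosomes differed by a median of 9 points.

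Repeat-rich cell wall genes held many of the remaining calls. Of 27 listed names of such genes, 8 had a call inside and 6 a protein change, none of it high-score, against 2.34% and 1.66% of all protein-coding genes. *FLO11* and *MUC1*, both listed, are names of the same gene, and *MSS11*, also listed, encodes a regulator. The list was drawn up with earlier results of these data known, so nothing is read from its count. *FLO9*, a flocculin gene, had 10 calls on 13 to 27 reads with shares of 40 to 100%, of which 3 changed the protein. YMR317W had 5 calls of 17 to 37% and *DAN4*, a cell wall mannoprotein gene, 3 of 18 to 21%. *FLO1*, *HPF1*, *TIR4* and YIL169C had 2 calls each, at 17 to 31%. Their shares were low except in *FLO9*. Values in such genes are uncertain, and whether similar copies exchanged reads was not tested.

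*LEU2*, an enzyme of leucine synthesis and a common selectable marker, was covered far more deeply than the rest. Its 3 synonymous RRC4-specific calls were in 239 of 434 reads (T84, 55%), 203 of 461 (F214, 44%) and 183 of 388 (S290, 47%), and each was also in 2 to 4 other mutant lists. A deletion in an AT repeat 22 bases upstream was in 171 of 172 reads (99%) and in 5 other lists. At the 3 *LEU2* positions called in every pool, the alternate allele made up 50 to 54% of 444 to 480 reads in RRC4, against 77 to 82% of 1049 to 1292 reads in the parental pool. The median depth there was 7.37 times that of calls with a score of at least 200 in RRC4, against 20.9 times in the parental pool. The other mutant pools ranged from 5.17 to 25.2 times.

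Elsewhere the 2 pools had like shares at the calls they have in common. Over 259 common calls of at least 10 reads in both, the median difference of RRC4 minus parental was 0 points. Most such calls were near 100%, with median shares in RRC4 of 96 to 100% by effect, which left little room for a difference. For 13 single-base calls with a parental share of 35 to 65%, it was -2 points, within -11 to 15 points. Of 99 parental calls of at least 10 reads that were not in the RRC4 list, 13 had a score of at least 200, and for 11 of these RRC4 had another call within 5 bases. Where the score reached 200, the median depth was 63 reads in RRC4 and 61 in the parental pool.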

How the data were processed

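Genomic DNA of 9 pools was sequenced as 200 bp paired-end reads after 3 PCR cycles, per the labels' protocols. Each deposited list gives, per call, a quality score, the depth as a read count and the alternate-allele percent. The read count is the authors' depth at the call, the percent is the authors' and is rounded down in the deposited list, and the score is the authors', of unstated scale. For RRC4, caller and genome build were not given in the sources used here. Bowtie 1.0.0 and SAMtools 0.1.19 are named for the parental pool, per the submitters' processing notes. Gene names and effects are the deposited ones, and 173 of 183 loci were found in the RefSeq R64 gene table, used for names and the number of genes.

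Alternate reads were computed from percent and depth. Shares were tested against 50% with a two-sided exact binomial test (SciPy 1.17.1, Benjamini-Hochberg over 523 calls, threshold 0.05), after the procedure was tested on simulated data. Each pool is 1 library, so no test compares RRC4 with the parental pool, and intervals cover counting error only. Calls of at least 10 reads entered. The lists of genes, the calls and the filters were chosen with earlier results of these data known. All genes with an RRC4-specific call could be named; full values were kept for near-fixed, stop, frameshift, chromosome 5, at least 70% or under 35% share, repeatedly hit and listed genes. Alternatives were depth, score, near-fixed share and the match to other lists. Calls not named are covered by counts and ranges, and some are not reported here.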

Additional observations from a re-analysis of the deposited data

Results flagged for a closer look

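Mitochondrial DNA was outside the comparisons. At the 4 mitochondrial calls common to both pools, RRC4 had 1428, 1761, 1715 and 1567 reads and the parental pool 1064, 1230, 1189 and 1069 reads, higher in RRC4 at all 4 positions. The median was 26.0 times the median depth of calls with a score of at least 200 in RRC4, against 18.5 times in the parental pool. The alternate allele made up 99% of reads at each of them in both pools. The difference rests on 1 library each and was not tested.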

How the results depend on the processing

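Of 84 values under alternative settings, 65 were counted as unchanged. Of these, 23 are the shares of the *CHD1* and *ECM32* calls, which a filter cannot change. Among the other results, 42 values stayed the same and 18 moved. Counts were judged by fold change, and the rest by the interval or spread of the main value. The G:C-to-A:T share under the single-base setting could not move either. The number of RRC4-specific calls was 169 at a score of at least 200. Near-fixed calls numbered 7 without a parental call at the position, 4 without one within 5 bases, 7 when absent from the other 7 mutant lists, 8 at a score of at least 200, 10 for single-base calls, and 2 with no parental call within 5 bases and at most 1 other list, a setting chosen after seeing the data. The protein-changing ones numbered 3, 2, 2, 4, 4 and 2 under the same settings. The G:C-to-A:T share was 75.6% with no minimum depth, 91.1% for calls absent from other mutant lists, 98.1% at a score of at least 200 and 90.2% under the combined setting. Same-base adjacent pairs made up 85.7% with no limit on score, also chosen after seeing the data. *ECM32* (90%) was not near-fixed at a limit of 95%. A window of 25 kb around *CHD1* held no other high-score call and gave no value. No paired analysis was possible because each pool is 1 library. Depth limits single shares: at 43 to 88 reads counting error alone is 6.22 points.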

Other observations

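Of the 262 RRC4-specific calls, 39 were insertions or deletions and 1 had 2 alternate bases. In 17 of them the reference allele was an AT dinucleotide repeat, with shares of 9 to 99% and a median of 24%. Examples were downstream of *NTH1*, a trehalase gene (14% of 55 reads), *ATG10*, an autophagy gene (12% of 55 reads), and *TRP3*, a tryptophan synthesis gene (28% of 53 reads). In 14 it was a homopolymer, with a median share of 96%, and at 12 of these the parental list has a different entry. Most of the 14 list 2 alternate alleles with a single share for both, so that share is not that of either allele. The median depth of G:C-to-A:T calls of high score was 58 to 76 reads over the 15 chromosomes with such calls.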
